A study of Mus musculus with 9 samples.

Results

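Matrix metalloproteinases, ADAMTS proteases and their tissue inhibitors were examined in mouse ear epidermis through every gene of the deposited count table whose symbol began with Mmp, Adamts or Timp directly followed by a digit, with upper and lower case kept apart. This gave 46 of 52550 genes, made up of 23 Mmp genes, 19 Adamts genes and 4 Timp genes. Enzymes of the Mmp family depend on zinc, are made as inactive precursors that are secreted or held at the cell surface, and cleave collagens, other matrix proteins and many signalling proteins. ADAMTS enzymes are secreted relatives with thrombospondin repeats that trim procollagens, proteoglycans and fibrillin-rich microfibrils, and the Timp proteins bind active metalloproteinases and block them. In skin, collagenases and stromelysins are known from keratinocytes at wound edges and from inflamed epidermis.

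The study followed Xiao-Yin-Fang (XYF), a herbal decoction, in the psoriasis-like dermatitis that imiquimod (IMQ) cream provokes, and sequenced RNA of epidermal sheets from the ears. All mice were wild type C57BL/6 animals aged 8 weeks, described as male and as C57BL/6J in the methods of the study. The VAS+H2O group had Vaseline on the skin for 5 days and 200 μl of ddH2O by gavage for 10 days, the IMQ+H2O group had imiquimod cream for 5 days with the same water gavage, and the IMQ+XYF group had imiquimod cream for 5 days with 200 μl of XYF (23.3 mg/g) by gavage for 10 days. The methods and a figure legend of the study differ in how often gavage was given each day, so the daily dose is uncertain. Each group held 3 libraries. The methods name a pair of mice as the source of the sheets without saying whether that was per library, so p-values measure the spread between these libraries, which may be technical.

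Total counts ran from 30298275 in IMQ+H2O replicate 1 to 64771160 in IMQ+XYF replicate 1. Levels are given as CPM, the count as parts per 1e6 of the library total after scaling by a TMM (trimmed mean of M-values) factor, and each set of per-library values follows the order of replicates 1, 2 and 3. A floor of 3 counts equalled 0.0471 to 0.104 CPM, which covers counting error only. The tissue label was checked against keratinocyte markers, and 10 of 10 were detected in every library. Their summed level was 43725, 39879 and 51501 CPM in VAS+H2O, 62995, 56611 and 50909 CPM in IMQ+H2O and 51866, 57265 and 54620 CPM in IMQ+XYF, with Krt10 the most abundant of them. Of these markers, 3 (Krt1, Dsg3 and Ivl) were called higher and 1 (Krt15) lower in IMQ+H2O than VAS+H2O, and Krt1 and Dsg3 were called higher and Krt15 lower in IMQ+XYF too. Single marker genes are named here and further on after their values were seen. VAS+H2O replicate 2 stood apart through markers of tissue under the epidermis, and IMQ+XYF replicate 2 through those of muscle alone. Skeletal muscle markers summed to 7.32, 299 and 8.83 CPM in the VAS+H2O libraries and 20.2, 81.8 and 6.32 CPM in the IMQ+XYF libraries. Dermal fibroblast markers summed to 137, 765 and 185 CPM in the VAS+H2O libraries. Member calls that rest on either library are therefore given with and without it.

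On the scale of CPM per kilobase of exon, on which levels of different genes can be set side by side, Adamts1 was the most abundant member at 50.4 ± 9.45 (mean ± SD over all 9 libraries). It was followed on the same scale by Mmp3 at 24.8 ± 9.43, Mmp2 at 22.5 ± 6.89, Timp3 at 22.4 ± 12, Timp2 at 19.2 ± 11.3 and Adamts14 at 14.6 ± 9.46 CPM per kilobase. Neighbours among these last genes lay within an SD of each other, and their order depended on the group. By group mean, Timp3, Mmp2, Timp2 and Adamts14 came before Mmp3 in VAS+H2O, and Mmp3 before all of them in both imiquimod groups. Mmp14 and Mmp28 came next at 12.9 ± 2.32 and 11.5 ± 2.35 CPM per kilobase. At the other end, 3 members (Mmp7, Mmp20 and Adamts16) had no count in any library, where the floor allows at most 0.0471 to 0.104 CPM, and 28 members had over 3 counts in every library.

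Summed per family on the scale of CPM per kilobase, the Mmp genes stood at 91.7 ± 6.87 for VAS+H2O, 79.8 ± 16.3 for IMQ+H2O and 83.0 ± 13.9 for IMQ+XYF (mean ± SD, n = 3 each). The Adamts sum was 76.7 ± 18.1, 66.0 ± 4.84 and 61.1 ± 5.67 CPM per kilobase in the same order. The Timp sum was 67.5 ± 26.7, 25.9 ± 1.66 and 41.7 ± 10.4 CPM per kilobase. The Mmp and Adamts sums thus overlapped between the groups within their SDs, while the summed inhibitors were lowest in all 3 IMQ+H2O libraries. No test was run on these sums.

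Imiquimod with water, set against Vaseline with water, came with more RNA of the collagenase Mmp1a and of its relative Mmp1b. RNA of several ADAMTS enzymes and of the inhibitors Timp2 and Timp3 was lower. A gene was called when its adjusted p was at most 0.05 and its log2 fold change at least 1 in size, in a fit of the 6 libraries compared. Of 33 members tested, 2 were called higher and 7 lower, while 1383 of 18009 genes (7.68%) were called in all, 3.64% higher and 4.04% lower. Those higher were Mmp genes (2 of 15 tested), and those lower were 5 of 14 tested Adamts genes and 2 of 4 Timp genes. The median log2 fold change was 0.39 over the tested Mmp genes, -0.60 over the Adamts genes and -1.26 over the Timp genes, beside -0.03 over all genes tested. The groups did not overlap for 4 tested members that were higher and 10 that were lower in IMQ+H2O, against 23.4% and 21.6% of all genes tested. The count of 9 calls fell to 4 without VAS+H2O replicate 1, to 3 without VAS+H2O replicate 2, to 4 without IMQ+H2O replicate 3 and to 6 without any other library of this comparison. Over all genes the calls fell to 857, 717 and 711 without the same libraries. Mmp1b, Adamts14 and Timp3 were called in each of the 12 alternative settings tried. Mmp1a passed the low-count filter only through its IMQ+H2O libraries, and Adamts3 and Adamts18 only through their VAS+H2O libraries, so the counts and medians describe the tested members alone. Without the filter, Mmp1a was still called, while Adamts3, Adamts6 and Adamts7 were not.

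XYF and water under the same cream are set apart by the second comparison. Of 35 members tested, 0 were called between IMQ+XYF and IMQ+H2O by edgeR and 0 by DESeq2, and 6 had an unadjusted p under 0.05. Over all 17793 genes tested, 5 were called (0.0281%) by edgeR and 129 by DESeq2, and 966 had an unadjusted p under 0.05. The 5 became 1 without IMQ+H2O replicate 1 and 0 without IMQ+H2O replicate 2 or any 1 of the IMQ+XYF libraries. The groups did not overlap for 6 members, all higher in IMQ+XYF (Timp2, Timp3, Timp4, Adamts3, Adamts10 and Mmp16, of which Adamts3 and Mmp16 passed the filter only through IMQ+XYF), where 5.99% of all genes tested were higher and 4.67% lower without overlap. The median log2 fold change was -0.01 over 18 Mmp genes, 0.38 over 13 Adamts genes and 0.73 over the 4 Timp genes, beside 0.00 over all genes.

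Mice given both imiquimod and XYF, set against Vaseline with water, again had more Mmp1a and Mmp1b RNA, and 4 of 35 tested members were called higher and 2 lower. Over all 17954 genes tested, 1371 (7.64%) were called, 4.58% higher and 3.05% lower. The groups did not overlap for 7 members that were higher and 7 that were lower, where 25.1% and 22.4% of all genes tested did not. All 4 calls upward were Mmp genes (of 17 tested) and both calls downward Adamts genes (of 14 tested). Medians were 0.33 for Mmp, -0.60 for Adamts and -0.18 for Timp genes on the log2 scale, beside -0.04 over all genes. The count of 6 calls fell to 3 without IMQ+XYF replicate 3 and to 4 without VAS+H2O replicate 1. Mmp1a and Mmp12 passed the filter only through their IMQ+XYF libraries, and without the filter Mmp1a was still called while Mmp12 and Adamts18 were not. The 3 comparisons share their groups pairwise, so their values are set side by side and not counted as repeats of each other.

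**Figure D1:**
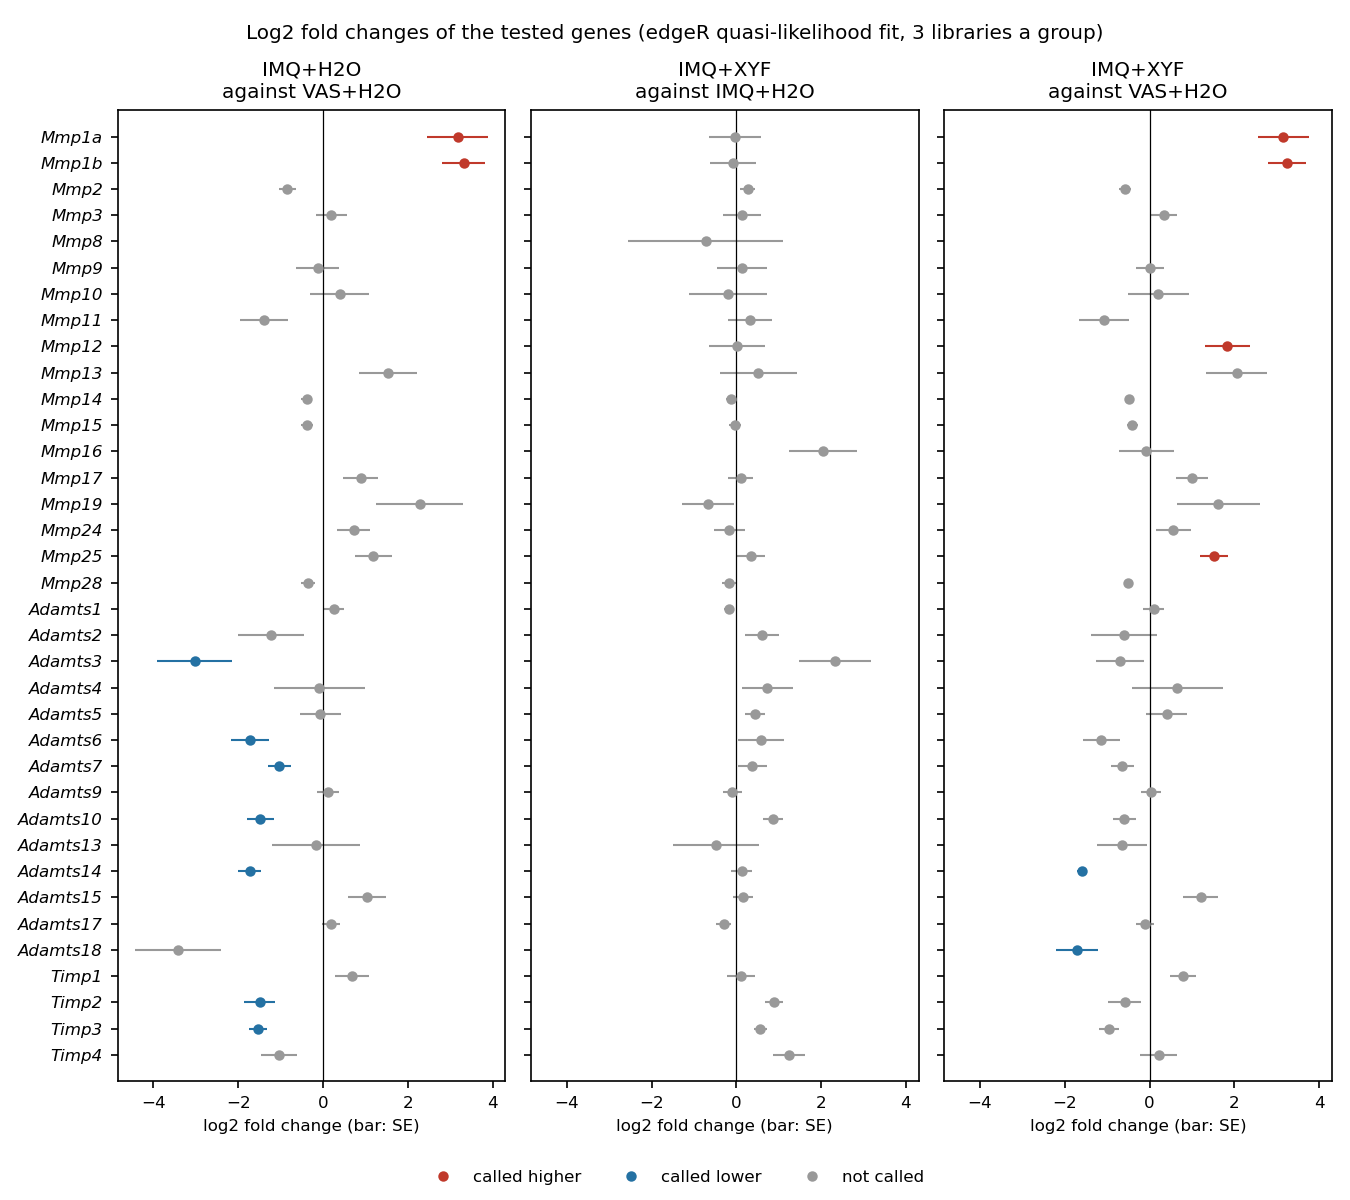
Log2 fold changes (x axis) of every tested member (y axis) in the 3 comparisons, from edgeR's quasi-likelihood fit, with bars for the standard error and colour for called genes. Mmp1a and Mmp1b lie above 3 in both comparisons with VAS+H2O, and no member is coloured between IMQ+XYF and IMQ+H2O.

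Collagenases cut the triple helix of fibrillar collagen. Mmp1a, which belongs to them, and its relative Mmp1b held the highest fold changes among the calls. Mmp1b (ENSMUSG00000041620, chr9:7368239-7388047 on GRCm38), a mouse relative of interstitial collagenase, stood at 0.423, 0.455 and 0.459 CPM in VAS+H2O, 2.07, 3.87 and 7.47 CPM in IMQ+H2O and 4.63, 1.97 and 6.04 CPM in IMQ+XYF. Every imiquimod library lay above every Vaseline library, and the imiquimod groups overlapped each other. Its log2 fold change was 3.31 (SE 0.50, adjusted p = 0.00991, edgeR quasi-likelihood test with Benjamini-Hochberg adjustment) in IMQ+H2O and 3.24 (SE 0.44, adjusted p = 0.00330) in IMQ+XYF, each against VAS+H2O. Between IMQ+XYF and IMQ+H2O the log2 difference was -0.08 (SE 0.54).

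Mmp1a (ENSMUSG00000043089, chr9:7464141-7476869), the interstitial collagenase of the mouse, was read at 0.0846, 0.182 and 0.0573 CPM in VAS+H2O, 0.483, 0.624 and 1.83 CPM in IMQ+H2O and 1.01, 0.462 and 1.42 CPM in IMQ+XYF. All Vaseline values lay below all imiquimod values, at levels close to the floor. The log2 fold change over VAS+H2O was 3.17 (SE 0.71, adjusted p = 0.0246, edgeR quasi-likelihood, Benjamini-Hochberg) for IMQ+H2O and 3.16 (SE 0.60, adjusted p = 0.00994) for IMQ+XYF. The first of these calls was lost without VAS+H2O replicate 1, 2 or 3 or IMQ+H2O replicate 3, at edgeR Benjamini-Hochberg adjusted p of 0.0829, 0.0542, 0.0655 and 0.0612 in a range of 0.0357 to 0.0829, with log2 fold changes from 2.34 to 3.71. The second was kept whichever library was left out. Of the 50-base stretches of Mmp1a exons, 8.15% also occur in Mmp1b, and 11.8% of those of Mmp1b occur in Mmp1a, so part of their reads could belong to either gene.

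Mmp13, the collagenase of bone, cartilage and wounds, differed widely between replicates of the same group. It was found at 1.29, 1.12 and 1.58 CPM in VAS+H2O, 0.725, 4.16 and 6.64 CPM in IMQ+H2O and 7.19, 0.894 and 8.43 CPM in IMQ+XYF. IMQ+H2O replicate 1 and IMQ+XYF replicate 2 lay below the whole Vaseline group and the other imiquimod libraries above it. The log2 fold change of 1.53 in IMQ+H2O and of 2.05 in IMQ+XYF against VAS+H2O did not pass (adjusted p = 0.150 and 0.0763, edgeR quasi-likelihood, Benjamini-Hochberg). Without IMQ+H2O replicate 1 the first became 2.05 (adjusted p = 0.0236 by edgeR with Benjamini-Hochberg, range 0.0236 to 0.419 over the libraries left out), and without IMQ+XYF replicate 2 the second became 2.57 (adjusted p = 0.0040, range 0.0040 to 0.207), and both then passed. DESeq2 called the second with all 6 libraries.

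Mmp8, the collagenase stored in neutrophil granules, was listed at 0.169, 0.0607 and 0 CPM in VAS+H2O, 0, 0.234 and 9.23 CPM in IMQ+H2O and 4.95, 0 and 0.627 CPM in IMQ+XYF. It was high in IMQ+H2O replicate 3 and IMQ+XYF replicate 1 and at or near 0 in most other libraries, including libraries of both imiquimod groups. The low counts kept it out of the tests against VAS+H2O, and between IMQ+XYF and IMQ+H2O its log2 difference was -0.72 (SE 1.83). Without IMQ+XYF replicate 2, the library of that group at 0, it passed the filter through the other IMQ+XYF libraries, so the call then made against VAS+H2O came with that selection. Neutrophil markers were measured beside it, and all 12 of 12 were in the table. They summed to 18.3, 14.8 and 16.9 CPM in VAS+H2O, 280, 358 and 2172 CPM in IMQ+H2O and 722, 918 and 588 CPM in IMQ+XYF, with Cxcr2 the most abundant in the VAS+H2O libraries and S100a9 in the others. Keratinocytes also make S100a8 and S100a9. Csf3r, which encodes the receptor for granulocyte colony-stimulating factor, was read at 0, 0.0910 and 0.0860 CPM, 0.173, 0.858 and 38.0 CPM and 22.9, 1.33 and 6.10 CPM in the same order. Its highest libraries were those with the most Mmp8. Elane had no count in any library. Ly6g was at 0, 0 and 0 CPM in VAS+H2O, 0, 0 and 0.509 CPM in IMQ+H2O and 0.251, 0 and 0.0854 CPM in IMQ+XYF, highest in the same libraries as Mmp8 and Csf3r, and Mpo was at most 0.256 CPM. Most of the 12 neutrophil markers did not pass the filter against VAS+H2O. Of those that did, Cxcr2, S100a8 and S100a9 were called higher in both imiquimod groups, and Csf3r, which passed only through its IMQ+XYF libraries, in IMQ+XYF. Between the imiquimod groups 0 of 6 tested were called by edgeR. The part of neutrophils in the Mmp8 values was not tested.

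Among the stromelysins, which cleave proteoglycans and basement membrane proteins and activate other precursors, Mmp3 was far more abundant than Mmp10 in CPM per kilobase. Mmp3 stood at 32.5, 43.0 and 42.5 CPM in VAS+H2O, 26.6, 35.7 and 74.0 CPM in IMQ+H2O and 55.1, 27.0 and 66.1 CPM in IMQ+XYF. The groups overlapped, with IMQ+H2O replicate 1 and IMQ+XYF replicate 2 the lowest and IMQ+H2O replicate 3 the highest of all. Its log2 fold change against VAS+H2O was 0.20 (SE 0.36) in IMQ+H2O and 0.33 (SE 0.31) in IMQ+XYF, and neither passed. Without IMQ+H2O replicate 3 the first turned to -0.35. Mmp10, the second stromelysin, had 0.909, 1.52 and 1 CPM in VAS+H2O, 0.311, 1.25 and 2.92 CPM in IMQ+H2O and 1.57, 0.185 and 2.16 CPM in IMQ+XYF. The lowest and the highest of these values were again imiquimod libraries, and the log2 fold change of 0.39 (SE 0.69) in IMQ+H2O turned to -0.54 without replicate 3 of that group. Mmp3 and Mmp10 share sequence too, with 7.99% of the 50-base stretches of Mmp3 present in Mmp10. Mmp7, the matrilysin of glandular epithelium, had no count.

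Mmp12, the elastase of macrophages, was counted at 0.148, 0.243 and 0.115 CPM in VAS+H2O, 0.207, 0.416 and 1.13 CPM in IMQ+H2O and 0.581, 0.308 and 0.911 CPM in IMQ+XYF. Every IMQ+XYF library lay above every Vaseline library, whereas IMQ+H2O replicate 1 fell inside the Vaseline range. It did not pass the low-count filter of the comparison of IMQ+H2O with VAS+H2O. In IMQ+XYF it was higher than VAS+H2O by 1.83 on the log2 scale (SE 0.53, adjusted p = 0.0418, edgeR quasi-likelihood, Benjamini-Hochberg). The call was lost without VAS+H2O replicate 1, 2 or 3 (log2 fold change 1.74, 2.16 and 1.65) and without IMQ+XYF replicate 1 or 3 (1.87 and 1.42), at edgeR Benjamini-Hochberg adjusted p of 0.0611 to 0.138, and it was not made in the fit of all 9 libraries. Macrophage and monocyte markers (12 of 12 in the table, Csf1r most abundant) summed to 50.9, 43.6 and 40.1 CPM in VAS+H2O, 42.8, 58.6 and 70.9 CPM in IMQ+H2O and 60.5, 39.1 and 44.8 CPM in IMQ+XYF. Of 9 tested, C1qb and Ly6c2 were called higher in IMQ+H2O than VAS+H2O, Ly6c2 being at 0 in all Vaseline libraries and past the filter only through IMQ+H2O, and 0 of 9 in either other comparison by edgeR. Ly6c2 was called whichever library was left out, and C1qb only without IMQ+H2O replicate 1, when 3 markers were called. It was lost without VAS+H2O replicate 1, 2 or 3 or IMQ+H2O replicate 2 or 3. Among the tests of IMQ+XYF against VAS+H2O, 1 marker was called without VAS+H2O replicate 2 and 3 without IMQ+XYF replicate 2. Their part in the Mmp12 values was not tested. Of the 1449 exon bases of Mmp1b, 157 overlap Mmp12 on the other strand. In IMQ+XYF the counts were 37, 10 and 32 for Mmp12 and 295, 64 and 212 for Mmp1b, and with the use of strand not stated the values of Mmp12 may include reads of Mmp1b.

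Gelatinases cleave denatured collagen and basement membrane collagen. Mmp2, the gelatinase of stromal cells, stood at 94.7, 122 and 88.9 CPM in VAS+H2O, 59.1, 69.2 and 43.1 CPM in IMQ+H2O and 69.9, 75.0 and 60.0 CPM in IMQ+XYF. Each Vaseline library was above each imiquimod library. The log2 fold change was -0.85 (adjusted p = 0.0273, edgeR quasi-likelihood, Benjamini-Hochberg) in IMQ+H2O and -0.57 (adjusted p = 0.0235) in IMQ+XYF, both against VAS+H2O and both short of the fold needed for a call. Mmp9, the gelatinase of leukocytes and migrating keratinocytes, had 6.74, 5.92 and 7.11 CPM in VAS+H2O, 2.14, 5.30 and 10.7 CPM in IMQ+H2O and 9.82, 3.73 and 6.29 CPM in IMQ+XYF. Imiquimod libraries lay on both sides of the narrow Vaseline range, and the log2 fold change of -0.13 (SE 0.50) in IMQ+H2O became 0.31 without replicate 1 of that group.

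Of the enzymes anchored in the membrane, Mmp14, which activates the Mmp2 precursor together with Timp2, stood at 91.4, 98.9 and 87.4 CPM in VAS+H2O, 72.3, 82.8 and 59.6 CPM in IMQ+H2O and 66.3, 65.7 and 65.3 CPM in IMQ+XYF. The Vaseline libraries were the highest, and the IMQ+XYF libraries nearly equal. Its log2 fold change was -0.39 in IMQ+H2O and -0.49 in IMQ+XYF against VAS+H2O (adjusted p = 0.0747 and 0.00329, edgeR quasi-likelihood, Benjamini-Hochberg). Both fell short of a call by size, and that in IMQ+H2O by adjusted p as well. Mmp25, an enzyme of neutrophils held by a lipid anchor, was read at 0.613, 0.303 and 0.573 CPM in VAS+H2O, 0.622, 1.30 and 1.5 CPM in IMQ+H2O and 1.29, 1.42 and 1.65 CPM in IMQ+XYF. All imiquimod libraries lay above all Vaseline libraries, IMQ+H2O replicate 1 only just. The log2 fold change of 1.53 in IMQ+XYF was called (SE 0.33, adjusted p = 0.0153, edgeR quasi-likelihood, Benjamini-Hochberg) and that of 1.18 in IMQ+H2O was not (adjusted p = 0.0981), each against VAS+H2O. In the fit of all 9 libraries both were called. Whether these differ was read from the comparison of the imiquimod groups, where the log2 difference was 0.34 (SE 0.35). The call in IMQ+XYF was lost without IMQ+XYF replicate 3, with a log2 fold change of 1.43 and an edgeR Benjamini-Hochberg adjusted p of 0.0588 (range 0.0281 to 0.0588). Mmp25 was highest in IMQ+XYF replicate 3 and Mmp8 in IMQ+H2O replicate 3. Within IMQ+H2O both rose from replicate 1 to replicate 3, and within IMQ+XYF their orders differed. The part of neutrophils in the Mmp25 values was not tested.

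Mmp28, the epilysin of keratinocytes, stood at 54.7, 51.4 and 55.0 CPM in VAS+H2O, 40.7, 53.2 and 32.7 CPM in IMQ+H2O and 34.2, 37.0 and 41.3 CPM in IMQ+XYF. The IMQ+XYF values all lay below the Vaseline values and the IMQ+H2O values overlapped them. Against VAS+H2O its log2 fold change was -0.52 in IMQ+XYF (adjusted p = 0.00692, edgeR quasi-likelihood, Benjamini-Hochberg), under the fold needed for a call. Mmp19, an enzyme of basal keratinocytes and macrophages, had 0.169, 0.607 and 0 CPM in VAS+H2O, 0.587, 0.832 and 2.31 CPM in IMQ+H2O and 1.23, 0.432 and 0.655 CPM in IMQ+XYF. VAS+H2O replicate 2 reached the imiquimod range, and the log2 fold change of 2.28 (SE 1.03) in IMQ+H2O did not pass. Exons of Tmem198b on the other strand cover 789 of 3533 exon bases of Mmp19, and reads of such overlapping genes cannot be told apart where the use of strand in counting is not stated.

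**Figure D2:**
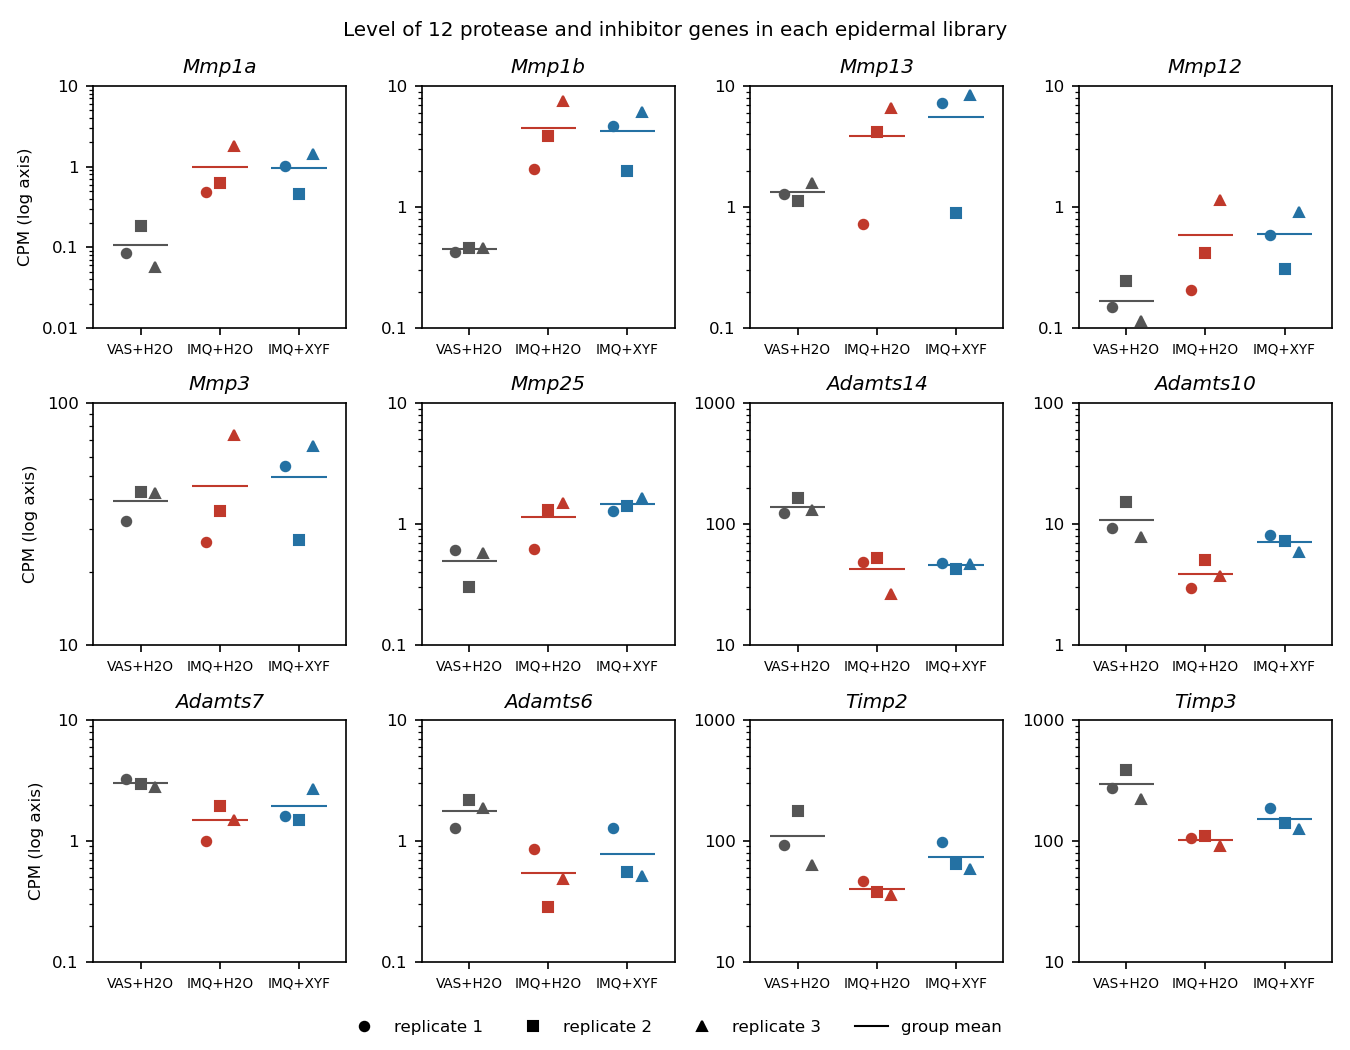
Level in CPM (log y axis) of 12 genes in each library, by group on the x axis, with 1 symbol per replicate and a line at the group mean. Mmp1a, Mmp1b and Mmp25 are higher in every imiquimod library than in every VAS+H2O library, Adamts14 and Timp3 are lower, and Mmp13 and Mmp3 overlap.

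Mmp1a, Mmp1b and Mmp12, of the members called higher against VAS+H2O, lie in a single cluster. Where they were called, Mmp1a and Mmp12 passed the filter only through imiquimod libraries. Both also share sequence with Mmp1b, so the grouping describes position only. Of the 23 Mmp genes, 10 sit on chromosome 9 between positions 7272514 and 7699585 (GRCm38), in the order Mmp13, Mmp12, Mmp1b, Mmp3, Mmp1a, Mmp10, Mmp8, Mmp27, Mmp20 and Mmp7. Only Mmp1b lies on the minus strand. Levels within the cluster differed widely on the scale of CPM per kilobase, from no count for Mmp20 and Mmp7 to 24.8 ± 9.43 for Mmp3. Mmp25 lies outside it, on chromosome 17.

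**Figure D3:**
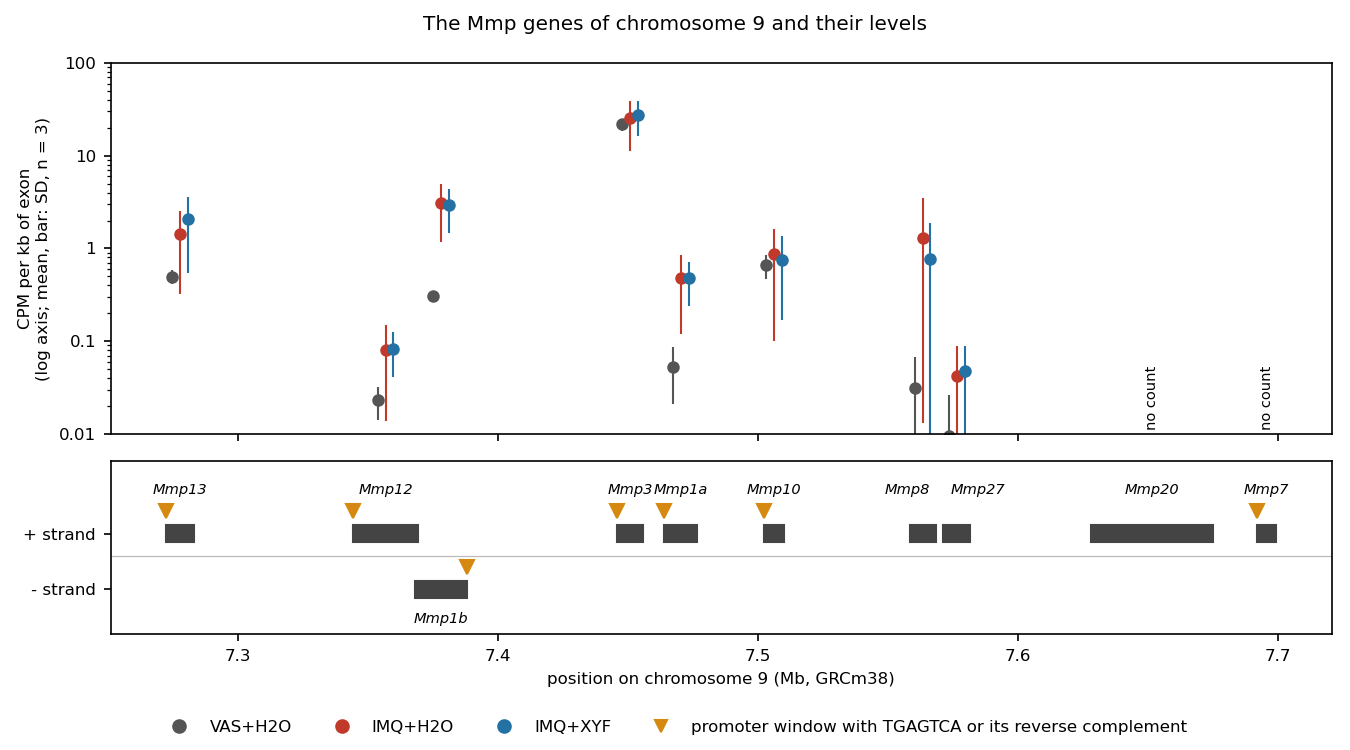
Mean level of the 10 Mmp genes of chromosome 9 in CPM per kilobase of exon (log y axis, bars for the SD ending at the axis where they reach under 0.01, n = 3 per group) above their positions in Mb (x axis) and strands. Triangles mark promoter windows with TGAGTCA on either strand, which 7 of the 10 genes hold.

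Promoter windows of 250 bases before to 50 bases after the gene start were taken from RefSeq (GRCm38.p6), in which 32 of 46 members had an entry. Those without were Mmp2, Mmp9, Mmp16, Mmp17, Mmp19, Adamts4, Adamts5, Adamts6, Adamts7, Adamts8, Adamts10, Adamts15, Adamts16 and Adamts19. The motif TGAGTCA, known as the AP-1 consensus and chosen with the expression values known, was searched on both strands. It was present in 1709 of 32851 windows of all genes (5.2%), and in any window of 1607 of 27025 genes (5.95%). All 10 Mmp genes of the chromosome 9 cluster had a window, and 7 held the motif (Mmp1a, Mmp1b, Mmp3, Mmp7, Mmp10, Mmp12 and Mmp13), whereas 0 of the 22 other members with a window held it. Genes with the motif included Mmp1b, which was called, Mmp3, which was not, and Mmp7, which had no count. The match is a description of the sequence. The windows of 4 genes of the cluster are printed 5′ to 3′ on the strand of the gene because these genes had the highest fold changes among those of the cluster tested against VAS+H2O, with the motif, or its reverse complement TGACTCA in Mmp13, in capitals. They lie at chr9:7463891-7464190 on the plus strand for Mmp1a, chr9:7387977-7388276 on the minus strand for Mmp1b, chr9:7347124-7347423 on the plus strand for Mmp12, where it is the second of the windows listed, and chr9:7272264-7272563 on the plus strand for Mmp13.
Mmp1a: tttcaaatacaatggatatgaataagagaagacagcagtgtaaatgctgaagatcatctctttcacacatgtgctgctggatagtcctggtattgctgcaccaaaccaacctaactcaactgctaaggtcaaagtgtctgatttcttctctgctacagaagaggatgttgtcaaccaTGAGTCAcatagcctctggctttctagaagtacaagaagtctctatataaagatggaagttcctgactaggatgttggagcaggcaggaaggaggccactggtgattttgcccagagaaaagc
Mmp1b: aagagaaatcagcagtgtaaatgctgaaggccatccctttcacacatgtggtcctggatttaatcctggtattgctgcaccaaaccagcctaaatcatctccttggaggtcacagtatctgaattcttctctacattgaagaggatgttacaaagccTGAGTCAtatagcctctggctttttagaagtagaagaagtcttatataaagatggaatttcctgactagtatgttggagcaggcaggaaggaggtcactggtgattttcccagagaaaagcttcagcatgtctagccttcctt
Mmp12: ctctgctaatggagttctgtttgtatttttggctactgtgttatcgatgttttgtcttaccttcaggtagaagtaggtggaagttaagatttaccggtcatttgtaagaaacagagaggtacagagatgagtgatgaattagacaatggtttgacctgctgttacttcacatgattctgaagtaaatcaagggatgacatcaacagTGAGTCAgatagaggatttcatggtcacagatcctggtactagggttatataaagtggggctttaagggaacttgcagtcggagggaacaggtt
Mmp13: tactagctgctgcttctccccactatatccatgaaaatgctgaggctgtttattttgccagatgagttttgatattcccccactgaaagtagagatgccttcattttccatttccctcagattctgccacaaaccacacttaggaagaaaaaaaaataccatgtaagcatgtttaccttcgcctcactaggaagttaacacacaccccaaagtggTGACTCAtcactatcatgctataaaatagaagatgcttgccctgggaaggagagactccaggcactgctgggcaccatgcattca
The motif began at offset -73 from the gene start in Mmp1a, -93 in Mmp1b, -44 in Mmp12 and -35 in Mmp13.

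Procollagen N-proteinases remove the amino-terminal propeptide of fibrillar procollagens, and Adamts14 (ENSMUSG00000059901, chr10:61197112-61273438) was the most abundant of them in CPM per kilobase. Adamts14 stood at 124, 163 and 130 CPM in VAS+H2O, 48.3, 52.3 and 26.3 CPM in IMQ+H2O and 48.0, 42.6 and 46.8 CPM in IMQ+XYF. The lowest Vaseline library was above the highest imiquimod library by a wide margin, and the imiquimod groups overlapped. Its log2 fold change was -1.73 (SE 0.26, adjusted p = 0.01, edgeR quasi-likelihood, Benjamini-Hochberg) in IMQ+H2O and -1.60 (SE 0.12, adjusted p = 0.000718) in IMQ+XYF, each against VAS+H2O. Both calls were kept whichever library was left out, and 0.212% of its 50-base stretches occur in any other gene. Adamts3, a second procollagen N-proteinase, had 0.465, 1.30 and 0.487 CPM in VAS+H2O, 0.104, 0 and 0.162 CPM in IMQ+H2O and 0.722, 0.339 and 0.285 CPM in IMQ+XYF. IMQ+H2O lay below both other groups without overlap, at levels near the floor. Adamts3, at a log2 fold change of -3.03 (SE 0.88) in IMQ+H2O against VAS+H2O, was called at an adjusted p of 0.0495 (edgeR quasi-likelihood, Benjamini-Hochberg). It was lost whichever of the 6 libraries was left out, at -3.30, -2.38 and -3.23 without VAS+H2O replicates 1, 2 and 3 and -3.09, -2.41 and -3.93 without IMQ+H2O replicates 1, 2 and 3.

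Among enzymes that cleave aggrecan and versican, Adamts1 stood at 154, 282 and 299 CPM in VAS+H2O, 317, 264 and 303 CPM in IMQ+H2O and 256, 296 and 232 CPM in IMQ+XYF. Its groups overlapped in all 3 comparisons, with VAS+H2O replicate 1 the lowest, and its log2 fold change was 0.25 (SE 0.24) in IMQ+H2O and 0.09 (SE 0.24) in IMQ+XYF against VAS+H2O. Adamts4, Adamts5, Adamts9 and Adamts15, with related substrates, were not called in any comparison by the edgeR fit of all 6 libraries.

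Adamts10 and Adamts6 act on fibrillin microfibrils. Adamts10 had 9.28, 15.1 and 7.77 CPM in VAS+H2O, 2.97, 4.99 and 3.68 CPM in IMQ+H2O and 8.09, 7.24 and 5.84 CPM in IMQ+XYF. IMQ+H2O lay below both other groups without overlap, and IMQ+XYF overlapped VAS+H2O. The log2 fold change of IMQ+H2O over VAS+H2O was -1.48 (SE 0.31, adjusted p = 0.0209, edgeR quasi-likelihood, Benjamini-Hochberg), and that in IMQ+XYF against IMQ+H2O was 0.87 (SE 0.23, adjusted p = 0.566). The first was not called without VAS+H2O replicate 2 (-1.14), IMQ+H2O replicate 1 (-1.28) or IMQ+H2O replicate 3 (-1.44). Adamts6 had 1.27, 2.18 and 1.86 CPM in VAS+H2O, 0.863, 0.286 and 0.486 CPM in IMQ+H2O and 1.29, 0.555 and 0.513 CPM in IMQ+XYF. It was below the Vaseline range in every IMQ+H2O library and inside it in IMQ+XYF replicate 1. Its log2 fold change of IMQ+H2O over VAS+H2O was -1.73 (SE 0.45, adjusted p = 0.0362, edgeR quasi-likelihood, Benjamini-Hochberg). Of the libraries left out, the call was kept without IMQ+H2O replicate 1 only, and it was also lost without the low-count filter. Without VAS+H2O replicates 1, 2 and 3 the log2 fold change was -1.93, -1.54 and -1.65, and without IMQ+H2O replicates 2 and 3 it was -1.38 and -1.66. With IMQ+XYF set against VAS+H2O it was -1.13 and not called, and without IMQ+XYF replicate 1 it was -1.70 and called.

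Adamts7, which cleaves cartilage oligomeric matrix protein, had 3.26, 2.97 and 2.78 CPM in VAS+H2O, 1, 1.95 and 1.48 CPM in IMQ+H2O and 1.60, 1.48 and 2.71 CPM in IMQ+XYF. Vaseline libraries were above all imiquimod libraries, IMQ+XYF replicate 3 coming close to them. For IMQ+H2O over VAS+H2O its log2 fold change was -1.03 (SE 0.28, adjusted p = 0.0407, edgeR quasi-likelihood, Benjamini-Hochberg). Of the libraries left out, the call was kept without IMQ+H2O replicate 2 only. The log2 fold change was -0.97, -1.03 and -1.05 without VAS+H2O replicates 1, 2 and 3 and -0.78 and -1.03 without IMQ+H2O replicates 1 and 3. This call was also lost without the low-count filter. Adamts18 was read at 1.29, 1.12 and 0.659 CPM in VAS+H2O, 0, 0 and 0.255 CPM in IMQ+H2O and 0.346, 0.123 and 0.456 CPM in IMQ+XYF. Both imiquimod groups lay below the Vaseline group without overlap. In IMQ+XYF against VAS+H2O it was called at a log2 fold change of -1.71 (SE 0.49, adjusted p = 0.0423, edgeR quasi-likelihood, Benjamini-Hochberg). For IMQ+H2O over VAS+H2O it was at -3.42 on the log2 scale (SE 1.01), with an adjusted p of 0.0530 by edgeR with Benjamini-Hochberg adjustment (range 0.0176 to 0.135 over the libraries left out). It was called there by DESeq2, in the fit of all 9 libraries and without IMQ+H2O replicate 3. That last call set VAS+H2O against IMQ+H2O libraries at 0 only, so it gives no size of change. Over the libraries left out the log2 fold change ran from -8.24 to -2.82, and Adamts18 passed the filter there only through VAS+H2O. The call in IMQ+XYF was not made in the fit of all 9 libraries. Of the libraries left out it was kept without VAS+H2O replicate 3 only, the log2 fold change being -1.5 and -1.64 without VAS+H2O replicates 1 and 2 and -1.78, -1.35 and -2.05 without IMQ+XYF replicates 1, 2 and 3.

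The inhibitors Timp2 and Timp3 were lower in IMQ+H2O than VAS+H2O, and their IMQ+XYF values lay between or overlapped the Vaseline range. Timp3 (ENSMUSG00000020044, chr10:86300372-86349506), which is held in the matrix and also blocks several ADAMTS and ADAM enzymes, stood at 273, 387 and 221 CPM in VAS+H2O, 106, 110 and 91.3 CPM in IMQ+H2O and 187, 141 and 125 CPM in IMQ+XYF. The 3 groups did not overlap, with IMQ+H2O lowest and IMQ+XYF in the middle. Its log2 fold change was -1.54 (SE 0.21, adjusted p = 0.00838, edgeR quasi-likelihood, Benjamini-Hochberg) in IMQ+H2O against VAS+H2O, and this call was kept whichever library was left out. In IMQ+XYF against IMQ+H2O it was 0.57 (SE 0.16, adjusted p = 0.592, edgeR quasi-likelihood, Benjamini-Hochberg) and did not pass. In IMQ+XYF against VAS+H2O it was -0.96, just under the fold for a call, and was called at -1.11 without VAS+H2O replicate 3 and at -1.12 without IMQ+XYF replicate 1. Timp3 lies inside Syn3, which runs on the other strand and shares 1733 exon bases with it in the annotation.

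Timp2, which inhibits Mmp2 and also helps Mmp14 to activate it, had 92.7, 177 and 63.2 CPM in VAS+H2O, 46.9, 37.7 and 35.5 CPM in IMQ+H2O and 98.9, 64.1 and 58.7 CPM in IMQ+XYF. IMQ+H2O lay below both other groups, which overlapped each other, and VAS+H2O replicate 2 was the highest library. The log2 fold change of IMQ+H2O over VAS+H2O was -1.49 (SE 0.37, adjusted p = 0.0314, edgeR quasi-likelihood, Benjamini-Hochberg), and that in IMQ+XYF against IMQ+H2O was 0.89 (SE 0.22, adjusted p = 0.479). The first was -1.61 and -0.97 without VAS+H2O replicates 1 and 2 and -1.58, -1.41 and -1.41 without IMQ+H2O replicates 1, 2 and 3, and was then no longer called. Timp4 had 7.17, 13.6 and 4.90 CPM in VAS+H2O, 5.91, 3.74 and 3.08 CPM in IMQ+H2O and 15.0, 7 and 7.60 CPM in IMQ+XYF. Its IMQ+XYF libraries were above all IMQ+H2O libraries, and the Vaseline libraries overlapped both. Timp4 had a log2 fold change of -1.03 (SE 0.42) in IMQ+H2O against VAS+H2O and 1.24 (SE 0.37) in IMQ+XYF against IMQ+H2O, and neither was called by edgeR, whereas DESeq2 called the first. Timp1, the inhibitor known to be induced in inflamed tissue, had 0.909, 1.82 and 1.20 CPM in VAS+H2O, 1.24, 2.13 and 2.92 CPM in IMQ+H2O and 2.5, 1.88 and 2.39 CPM in IMQ+XYF. Its groups overlapped except that IMQ+XYF lay above VAS+H2O, and the log2 fold change of 0.79 between those groups was called only without VAS+H2O replicate 2, at 1.10. Timp1 and Timp4 lie inside Syn1 and Syn2 on the other strand.

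Markers of tissue under the epidermis were measured beside the inhibitors and the Adamts genes. Cartilage markers (14 of 14 in the table, Chad or Sox9 most abundant, Matn1 at 0 in every library) summed to 328, 626 and 278 CPM in VAS+H2O, 108, 95.5 and 85.6 CPM in IMQ+H2O and 286, 186 and 188 CPM in IMQ+XYF. IMQ+H2O was lowest without overlap, as for Timp2 and Timp3. Of 12 tested, 10 were called lower in IMQ+H2O than VAS+H2O, 2 (Col9a1 and Col11a2) higher in IMQ+XYF than IMQ+H2O, and 2 (Col9a2 and Col9a3) lower in IMQ+XYF than VAS+H2O. Dermal fibroblast markers (14 of 14) had Dcn as the most abundant gene in VAS+H2O replicate 2 and Thy1, also carried by T cells, in every other library. They summed to 190, 185 and 219 CPM in IMQ+H2O and 361, 365 and 225 CPM in IMQ+XYF, beside the VAS+H2O sums given with the tissue check. Of 12 tested, 3 (Col1a2, Col5a1 and Pdgfrb) were called lower and 2 (Thy1 and Fbln1) higher in IMQ+H2O than VAS+H2O, 0 between the imiquimod groups by edgeR, and the same 2 higher in IMQ+XYF than VAS+H2O. The median log2 fold change of the fibroblast markers was -2.35, 1.19 and -0.86 in these comparisons, and that of the cartilage markers -2.53, 1.52 and -0.91. Without VAS+H2O replicate 2 the fibroblast medians against VAS+H2O were -0.53 in IMQ+H2O and 0.48 in IMQ+XYF, and the cartilage medians -2.09 and -0.45. Of 12 cartilage markers then tested, 9 were called lower in IMQ+H2O and 0 by edgeR in IMQ+XYF. Col9a2 and Col9a3 in IMQ+XYF were called only without VAS+H2O replicate 1 or 3, and lost without VAS+H2O replicate 2 or IMQ+XYF replicate 1, 2 or 3. The 3 fibroblast markers called lower in IMQ+H2O were lost without IMQ+H2O replicate 1, 2 or 3, and Pdgfrb also without VAS+H2O replicate 1 or 2. Fbln1 in IMQ+H2O was lost without VAS+H2O replicate 1 or IMQ+H2O replicate 3, and Thy1 was always called. The 2 cartilage calls between the imiquimod groups were kept without IMQ+H2O replicate 3 and lost without any other library of that comparison. Skeletal muscle markers (8 of 8, Myh1 most abundant in replicate 2 of VAS+H2O and IMQ+XYF and Mylpf in the other libraries) summed to 3.69, 7.04 and 7.75 CPM in IMQ+H2O, beside the sums given with the tissue check, and 0 of 7 tested were called in any comparison by edgeR. Fewer cells of a type and less RNA per cell cannot be told apart in such bulk samples. The part of these tissues in the Timp and Adamts results was not tested.

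**Figure D4:**
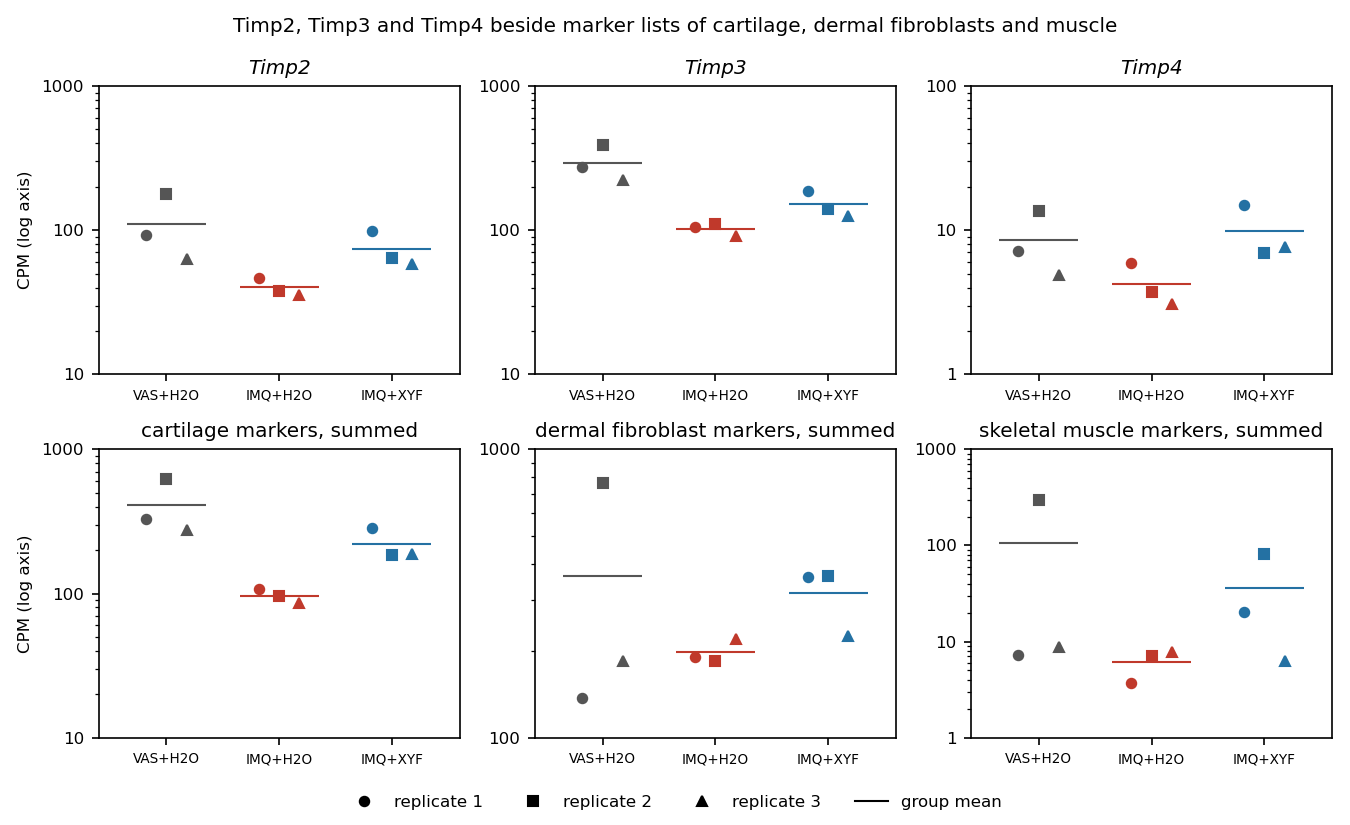
Level in CPM (log y axis) of Timp2, Timp3 and Timp4 and summed CPM of cartilage, dermal fibroblast and skeletal muscle markers in each library, by group on the x axis, with 1 symbol per replicate and a line at the group mean. Timp2, Timp3 and the cartilage sum are lowest in the 3 IMQ+H2O libraries, and VAS+H2O replicate 2 is the highest library in every panel except that of Timp4.

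Pericyte and smooth muscle markers summed to 55.6, 111 and 49.0 CPM in VAS+H2O, 32.0, 32.3 and 21.3 CPM in IMQ+H2O and 44.3, 44.4 and 38.5 CPM in IMQ+XYF, in the order of Timp3 and without overlap. Most of every sum was Cspg4, so this order is largely that of a single gene. Cspg4 stood at 53.4, 82.1 and 46.7 CPM in VAS+H2O and 28.7, 26.7 and 18.3 CPM in IMQ+H2O. In IMQ+XYF it was at 38.2, 32.9 and 34.6 CPM. T cell markers summed to 68.0, 65.9 and 57.7 CPM, 34.7, 47.4 and 40.8 CPM and 47.0, 43.3 and 32.3 CPM, lower in every imiquimod library than in every Vaseline library. The median log2 fold change in IMQ+H2O was -1.32 for pericyte and smooth muscle, -0.85 for endothelial and -0.73 for T cell markers, and 0.38, -0.21 and -0.79 without VAS+H2O replicate 2. Endothelial markers had 1 of 8 tested called lower in both comparisons with VAS+H2O (Vwf), T cell markers 1 of 7 lower in IMQ+H2O (Cd3d), pericyte and smooth muscle markers 1 of 5 lower in IMQ+H2O (Cspg4), and sebaceous gland and hair follicle markers 1 of 5 lower in both (Scd1). Cspg4 was called whichever library was left out. Vwf in IMQ+H2O was called only without IMQ+H2O replicate 2 (lost without IMQ+H2O replicate 1 or 3 or VAS+H2O replicate 1, 2 or 3), and in IMQ+XYF it was lost without IMQ+XYF replicate 3. Cd3d was called only without VAS+H2O replicate 3 (lost without VAS+H2O replicate 1 or 2 or IMQ+H2O replicate 1, 2 or 3). Scd1 was lost without VAS+H2O replicate 1 or 2 or IMQ+H2O replicate 2 or 3 in IMQ+H2O, and without VAS+H2O replicate 2 or IMQ+XYF replicate 1 or 3 in IMQ+XYF. In IMQ+H2O, 1 marker of the sebaceous gland and hair follicle list was called higher without VAS+H2O replicate 2 or IMQ+H2O replicate 2. Langerhans cell, melanocyte and adipocyte markers had 0 calls by edgeR among 7, 6 and at most 4 tested genes in the fit of all 6 libraries. None of these lists had a call between the imiquimod groups, and their part in the Timp and Adamts results was not tested.

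The surroundings of these enzymes were read from 5 lists. Of activators and surface partners, 12 of 20 were tested in IMQ+H2O against VAS+H2O, with 1 called higher and 1 lower and a median log2 fold change of 0.27. Cd44, a hyaluronan receptor that docks Mmp9 at the cell surface, stood at 181, 205 and 242 CPM in VAS+H2O, 500, 457 and 695 CPM in IMQ+H2O and 506, 540 and 560 CPM in IMQ+XYF. Every imiquimod library was above every Vaseline library, and the log2 fold change was 1.38 (SE 0.19) in IMQ+H2O and 1.36 (SE 0.12) in IMQ+XYF. Spock2, a secreted proteoglycan, fell by 1.47 and 1.46 on the log2 scale in the same comparisons. In IMQ+XYF against VAS+H2O, 2 of 11 tested were called higher and 1 lower (median 0.28), the further one being Plaur, the urokinase receptor, at 2.26 on the log2 scale. Cd44 was called in both comparisons whichever library was left out. Spock2 was lost without VAS+H2O replicate 1 or 2 in both, without IMQ+H2O replicate 1 or 3 in the first and without IMQ+XYF replicate 2 or 3 in the second. Plaur was called only without IMQ+XYF replicate 2, and lost without VAS+H2O replicate 1, 2 or 3 or IMQ+XYF replicate 1 or 3. Another gene was called higher in IMQ+H2O without VAS+H2O replicate 3 or IMQ+H2O replicate 1. Between the imiquimod groups 0 of 12 were called by edgeR (median -0.04).

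Inhibitors outside the Timp family, listed together with clearance receptors such as Lrp1, included genes that fell as well. Of 9 tested, 3 were called lower in IMQ+H2O than VAS+H2O (median log2 fold change -0.73), 2 lower in IMQ+XYF than VAS+H2O (median -0.35) and 0 between the imiquimod groups by edgeR (median 0.13). Reck, an inhibitor anchored in the membrane, stood at 22.3, 40.0 and 18.0 CPM in VAS+H2O, 7.87, 5.20 and 4.16 CPM in IMQ+H2O and 20.1, 13.5 and 14.7 CPM in IMQ+XYF. IMQ+H2O was lowest without overlap, and its log2 fold change against VAS+H2O was -2.24 (SE 0.37, adjusted p = 0.0121, edgeR quasi-likelihood, Benjamini-Hochberg). The others lower there were A2m, a protease-trapping plasma protein, at -1.71, and Serpine2 at -1.42, while A2m and Papln were lower in IMQ+XYF than VAS+H2O, at -1.27 and -1.25. Reck in IMQ+H2O and Papln in IMQ+XYF were called whichever library was left out. A2m was lost without VAS+H2O replicate 1 or 2 in both, without IMQ+H2O replicate 2 or 3 in IMQ+H2O and without IMQ+XYF replicate 2 or 3 in IMQ+XYF. Serpine2 was called only without IMQ+H2O replicate 1, and lost without VAS+H2O replicate 1, 2 or 3 or IMQ+H2O replicate 2 or 3. The count of 3 called lower was 1 without VAS+H2O replicate 1 or 2 or IMQ+H2O replicate 3.

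The list of related ADAM membrane proteases also held Rhbdf1 and Rhbdf2, which are not ADAM genes. This list had 1 of 11 tested called higher and 1 lower in IMQ+H2O (median log2 fold change 0.16) and 1 of 12 each way in IMQ+XYF (median 0.10), both against VAS+H2O. Between the imiquimod groups 0 of 12 were called by edgeR (median -0.12). Adam8, an enzyme of leukocytes, stood at 18.8, 25.7 and 34.0 CPM in VAS+H2O, 80.5, 65.6 and 124 CPM in IMQ+H2O and 102, 73.1 and 75.9 CPM in IMQ+XYF. It was higher in every imiquimod library, with a log2 fold change of 1.77 (SE 0.30) in IMQ+H2O and 1.68 (SE 0.23) in IMQ+XYF, and Adam22, which lacks protease activity, fell by 1.13 and 1.26 on the log2 scale. ADAMTS-like proteins, which carry the repeats but no protease domain, had 2 of 4 tested called lower in IMQ+H2O (median -0.79), Adamtsl3 at -1.94 and Adamtsl4 at -1.25, and 0 of 4 by edgeR in IMQ+XYF against either other group (median -0.54 against VAS+H2O and 0.45 against IMQ+H2O). Adam8 was called in both comparisons whichever library was left out. Adam22 in both comparisons, and Adamtsl3 and Adamtsl4 in IMQ+H2O, were called only without VAS+H2O replicate 3. They were lost without VAS+H2O replicate 1 or 2, without IMQ+H2O replicate 1, 2 or 3 in IMQ+H2O, and without IMQ+XYF replicate 1, 2 or 3 in IMQ+XYF.

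Of the proteoglycan and matrix substrates of these enzymes, 11 of 24 tested were called lower and 0 higher by edgeR in IMQ+H2O against VAS+H2O, with a median log2 fold change of -2.02, while in IMQ+XYF against VAS+H2O 2 (Eln and Vwf) were called lower and 1 higher (median -0.74) and against IMQ+H2O 0 (median 0.99). Without VAS+H2O replicate 2 the median in IMQ+H2O was -0.98 with 10 called lower, and that in IMQ+XYF was -0.14 with 2 called lower and 2 higher. The count called lower in IMQ+H2O was 5 without replicate 1 of that group, with 2 then called higher, and 4 without replicate 2 or 3. Eln, which encodes elastin, stood at 81.1, 252 and 105 CPM in VAS+H2O, 13.4, 8.89 and 3.86 CPM in IMQ+H2O and 48.5, 36.7 and 41.1 CPM in IMQ+XYF. The 3 groups did not overlap, and the log2 fold change against VAS+H2O was -4.10 (SE 0.61) in IMQ+H2O and -1.79 (SE 0.42) in IMQ+XYF. Acan, which encodes the cartilage proteoglycan aggrecan that several ADAMTS enzymes cut, had 133, 277 and 132 CPM in VAS+H2O, 65.4, 44.4 and 27.6 CPM in IMQ+H2O and 135, 86.1 and 89.0 CPM in IMQ+XYF. IMQ+H2O was again the lowest group without overlap, with a log2 fold change of -2.0 (SE 0.41) against VAS+H2O. Bgn, Hapln1 and Fbn1 were called lower there too, at -2.47, -2.50 and -2.51. Without VAS+H2O replicate 2 the values of Eln, Acan, Bgn, Hapln1 and Fbn1 were -3.43, -1.54, -1.89, -2.0 and -1.83, all still called. Eln in IMQ+XYF was lost without IMQ+XYF replicate 1, 2 or 3 and Vwf there without IMQ+XYF replicate 3. In IMQ+H2O, Acan was lost without IMQ+H2O replicate 2 and Fbn1 without IMQ+H2O replicate 2 or 3. Acan was taken up here after its values were seen. Tnc, a matrix protein of wounds, was the gene called higher in IMQ+XYF, at 1.28 against VAS+H2O. Of this list, Hapln1 is also a cartilage marker, Vwf an endothelial marker, and Col1a1, Col1a2, Col3a1, Col5a1, Dcn and Lum are also fibroblast markers.

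The members not described by value were low or passed no threshold. Adamts8, Adamts12, Adamts19, Adamts20, Mmp21, Mmp23 and Mmp27 had counts but were tested in no comparison, none of them above 0.516 CPM in any library. Mmp11, Mmp15, Mmp16, Mmp17, Mmp24, Adamts2, Adamts4, Adamts5, Adamts9, Adamts13, Adamts15 and Adamts17 were tested in at least 1 comparison and called in none by the edgeR fit of all 6 libraries. Of these, Adamts15 was called in IMQ+XYF against VAS+H2O without VAS+H2O replicate 2 (log2 fold change 1.76) and in the fit of all 9 libraries, and Mmp11 in IMQ+H2O against VAS+H2O without VAS+H2O replicate 3 (-1.73). Mmp16, a membrane enzyme, lay above IMQ+H2O in every IMQ+XYF library, at 0.393, 0.370 and 0.399 against 0.104, 0.182 and 0 CPM, and is named after its values were seen. With 3 libraries against 3, an exact permutation test of a single gene cannot go below 0.1, and RNA levels do not measure secreted or active enzyme.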

How the data were processed

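RNA of 9 epidermal libraries was read from the gene count table that the authors deposited, whole numbers for 52550 genes, of which 21327 had no count and 92 symbols occurred more than once. The authors aligned reads with STAR 2.5 to GRCm38 (Ensembl genes), and StringTie, Cuffnorm, FastQC and DESeq 1.22.1 are also named. The counting tool and its use of strand are not stated, and the labels describe strand-specific libraries while the methods name the TruSeq v2 kit. Values of 1, 2 and 3 were about equally common, so a value may be a rounded estimate or count both mates of a pair.

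Each comparison was fitted on its own 6 libraries with edgeR 4.0.16 (R 4.3.3) using TMM factors, filterByExpr and quasi-likelihood tests with Benjamini-Hochberg adjustment, after the script had been tested on simulated counts. CPM used TMM factors from 18492 genes that passed the filter over all 9 libraries, and exon lengths came from GENCODE M21. Alternatives were DESeq2 1.42.0, RLE factors, no filter, all 9 libraries in 1 fit, a replicate block, adjusted p alone and leaving out each library.

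Members named with values were those called in any comparison, the 4 Timp genes, the 3 Mmp and 3 Adamts genes most abundant in CPM per kilobase, and metalloproteinases known from keratinocytes, neutrophils or macrophages of wounded or inflamed skin. From each partner list up to 5 called genes per comparison could be named, by adjusted p. Members and lists were chosen with earlier results of these data known.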

Additional observations from a re-analysis of the deposited data

How the results depend on the processing

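Members were called in IMQ+H2O against VAS+H2O in 11 cases with DESeq2, 8 with RLE factors, 6 without the low-count filter, 11 with all 9 libraries in 1 fit and 10 by adjusted p alone, against 9. In IMQ+XYF against VAS+H2O these counts were 7, 6, 4, 5 and 10, against 6. Between IMQ+XYF and IMQ+H2O no member was called in any of the 12 alternatives. Over all genes, adjusted p alone gave 3986 calls in IMQ+H2O and 5152 in IMQ+XYF against VAS+H2O, and between the imiquimod groups DESeq2 gave 129 and the fit of all 9 libraries 1. Of the fold changes of named members, DESeq2 kept 65 on their side of the threshold with 3 gained, RLE factors 67 with 1 lost, no filter 63 with 5 lost, and the fit of all 9 libraries 64 with 2 gained and 2 lost, and none reversed. The cause of the changes was not tested.

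The replicate numbers are not said to pair the samples. Correlations of libraries with the same number ran from -0.167 to 0.151, and those with different numbers from -0.296 to 0.251. No comparison had all 3 same-number values above 0.1, and not every sample correlated best with its own number. These correlations used deviations from means of 3 libraries, so they cannot show whether libraries shared a mouse, litter or day. With the number as a replicate block, 4 members were called in IMQ+H2O and 4 in IMQ+XYF against VAS+H2O, and 0 genes of all between the imiquimod groups. Mmp10 reversed to -0.0114 in IMQ+H2O and -0.0687 in IMQ+XYF against VAS+H2O, Mmp9 to -0.0887 in IMQ+XYF against VAS+H2O, and Mmp1a to 0.0768 between the imiquimod groups, none of them called.

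Leaving out a library gave 3 to 6 members called in IMQ+H2O and 3 to 7 in IMQ+XYF against VAS+H2O, and over all genes 711 to 1314 in the former and 0 to 5 between the imiquimod groups. Of the fold changes, 332 kept their side of the threshold, 39 lost it, 7 gained it and 30 reversed, none of the reversed ones being called in the full fit. In IMQ+H2O against VAS+H2O the log2 fold change ran from -0.83 to 0.31 for Mmp9, -0.54 to 0.90 for Mmp10 and -0.35 to 0.51 for Mmp3. In IMQ+XYF against VAS+H2O it ran from -0.15 to 0.28 for Adamts1, -0.37 to 0.31 for Mmp9, -0.20 to 0.71 for Timp4 and -0.33 to 0.73 for Mmp10. Between the imiquimod groups it ran from -0.39 to 0.92 for Mmp12, -0.15 to 0.67 for Mmp3, -0.28 to 0.83 for Mmp9, -0.16 to 0.41 for Timp1, -0.24 to 0.00298 for Mmp14, -0.33 to 0.0368 for Mmp28, -0.13 to 0.31 for Adamts14, -0.72 to 0.73 for Mmp10, -1.20 to 0.14 for Mmp19, -0.40 to 0.79 for Mmp1a, -0.43 to 0.50 for Mmp1b, -3.31 to 3.88 for Mmp8 and -0.0136 to 1.04 for Adamts6. Leaving out libraries was also applied to the marker and partner lists and to Adamts15 and Mmp11, an alternative chosen after seeing the data. Depth limits the genes near the floor of 3 counts, and those under the low-count filter have no test.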
